A study of Mus musculus with 16 samples.

Results

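Skeletal muscle fibres of the slow type build their contractile apparatus from a set of proteins that differs from that of fast fibres. The genes described here encode the slow light chains of myosin (Myl2, Myl3 and Myl6b), the slow troponins (Tnnt1, Tnni1 and Tnnc1), slow tropomyosin (Tpm3), slow myosin binding protein C (Mybpc1) and myoglobin (Mb). They are 9 of the 19938 genes with a probe set annotated to a single symbol, and each was represented by its probe set with the highest mean over the 16 arrays. All 9 were found, and all 9 passed the filter on low values.

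Troponin and tropomyosin sit on the actin filament and make its contact with myosin depend on calcium: troponin C binds calcium, troponin I holds contraction off in its absence, and troponin T anchors the complex to tropomyosin. Light chains wrap the lever arm of the myosin head, and myoglobin stores oxygen in fibres rich in mitochondria. Calcineurin, a phosphatase switched on by calcium and calmodulin, dephosphorylates NFAT transcription factors, and in mouse muscle it is known to promote slow-fibre genes.

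The gastrocnemius, a mainly fast calf muscle, came from male C57Bl6J mice. All 4 groups had eaten fat-rich food (butter fat gave 40% of its calories) during 8 weeks or longer. In 1 line knockout (KO) mice lack Ppp3cb, a catalytic calcineurin subunit, in the whole body, and in the other line KO mice lack Ppp3r1, the regulatory one, in skeletal muscle only. Wild-type (WT) mice are littermates. The Cre recombinase that deletes Ppp3r1 is driven by Mlc1f (Myl1), and the labels used here do not say whether its WT littermates carry that Cre. Each of the 4 groups has 4 arrays, 1 per mouse, and that number sets how precise the values can be.

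The targeted genes were read first. Ppp3cb was at log2 10.22 and 10.48 on the arrays labelled KO for animals 5 and 18, but at 11.74 and 11.61 for animals 6 and 9. On the arrays labelled Ppp3cb WT it was 11.67 and 11.80 for animals 2 and 12, but 10.37 and 10.23 for animals 23 and 24. Thus 4 libraries of that line, labelled WT 23, WT 24, KO 6 and KO 9, go against their labels. The labels were kept, and results of this line are also given without those arrays. Ppp3r1 was at 9.49 ± 0.14 (SD, n = 4) in Ppp3r1 WT and 9.17 ± 0.14 (SD, n = 4) in Ppp3r1 KO, a difference of -0.32 that was not called by limma (adjusted p = 0.372). All Ppp3r1 KO arrays still lay below all Ppp3r1 WT arrays for this gene (highest 9.28 against lowest 9.36), where 4.86% of all clusters did not overlap. Whether the probe set lies within the deleted part of Ppp3r1 is not given in the sources used here. The median of all probe sets of an array was 6.68 to 6.77 for the Ppp3cb line against 6.81 to 6.94 for the Ppp3r1 line, so that line, batch and normalization cannot be told apart. Skeletal muscle markers (Acta1, Ckm, Ttn, Des, Neb, Myh4 and Pvalb) averaged between 14.04 and 14.14 on every array, and heart markers averaged between 6.62 and 6.96, not far above the filter at 6.18. The heart marker Myh6 ranged higher, from 6.83 to 8.38 over the arrays. Its means were 7.66 in Ppp3cb WT, 8.09 in Ppp3cb KO, 7.04 in Ppp3r1 WT and 7.05 in Ppp3r1 KO.

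The stretches of DNA before the transcription starts are shown for 4 members with a single start in RefSeq, as an example of what the genes share beyond their role: 3 members that varied widely from animal to animal and Mybpc1, which varied less. Each stretch is the 250 bases before the start on the gene's own strand in build GRCm38.p6. Tnnt1 is on the minus strand at chr7:4515976-4516225, Myl3 on the plus strand at chr9:110763428-110763677, Tnnc1 on the plus strand at chr14:31208062-31208311 and Mybpc1 on the minus strand at chr10:88605153-88605402. Capitals mark E-boxes (CANNTG), the motif bound by factors of the MyoD family.
Tnnt1: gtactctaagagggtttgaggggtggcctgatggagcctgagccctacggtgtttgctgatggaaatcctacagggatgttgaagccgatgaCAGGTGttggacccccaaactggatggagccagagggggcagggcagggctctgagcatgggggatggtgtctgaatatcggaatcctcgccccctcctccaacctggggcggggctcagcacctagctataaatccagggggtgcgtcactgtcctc
Myl3: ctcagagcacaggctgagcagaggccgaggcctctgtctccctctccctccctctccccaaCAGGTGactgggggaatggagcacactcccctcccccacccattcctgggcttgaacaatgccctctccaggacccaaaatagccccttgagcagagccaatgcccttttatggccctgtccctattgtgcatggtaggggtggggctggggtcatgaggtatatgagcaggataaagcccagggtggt
Tnnc1: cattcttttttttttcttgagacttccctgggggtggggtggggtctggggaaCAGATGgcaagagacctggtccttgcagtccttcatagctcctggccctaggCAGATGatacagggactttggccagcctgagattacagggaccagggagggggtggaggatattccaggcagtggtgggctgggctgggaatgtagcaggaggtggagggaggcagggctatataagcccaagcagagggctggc
Mybpc1: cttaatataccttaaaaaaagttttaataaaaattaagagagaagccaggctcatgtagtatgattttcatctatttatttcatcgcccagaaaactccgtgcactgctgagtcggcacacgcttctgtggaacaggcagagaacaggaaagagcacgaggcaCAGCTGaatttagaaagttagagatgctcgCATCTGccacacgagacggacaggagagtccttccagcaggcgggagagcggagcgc
RefSeq windows that also hold the 50 bases after the start were searched on both strands for all 9 members, which have 14 such windows. An E-box was in 14 of the 14 windows (9 genes), against 72.3% of all 32851 windows of the same length. The NFAT core GGAAA was in 9 of 14 windows (7 genes), against 61.3% of all windows. The MCAT motif CATTCC, bound by TEAD factors, was in 2 of 14 windows, against 14.7% of all windows. Its matches start 177 and 149 bases before the Myl3 start and 58 bases before that of Tnnc1. The MEF2 consensus was in 0 of 14 windows and in 3.2% of all windows. These matches are descriptions of letters in a short window, and the motifs may overlap one another. The windows of Tnni1 and some of those of Mb overlap as well, so the same site can count in more than 1 window.

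The clearest difference in these genes lay between the lines and not between KO and WT. All 9 genes were lower in Ppp3r1 WT than in Ppp3cb WT, and in every gene the Ppp3cb KO group had the highest mean and the Ppp3cb WT group the next. Within each line the arrays of KO and WT overlapped for every gene, where 4.86% of all clusters did not in the Ppp3r1 line and 1.51% in the Ppp3cb line. A further feature was a wide spread among animals of 1 group, which 6 of the genes shared almost step for step. In whole muscle, fewer slow fibres and less RNA per slow fibre cannot be told apart.

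**Figure D1:**
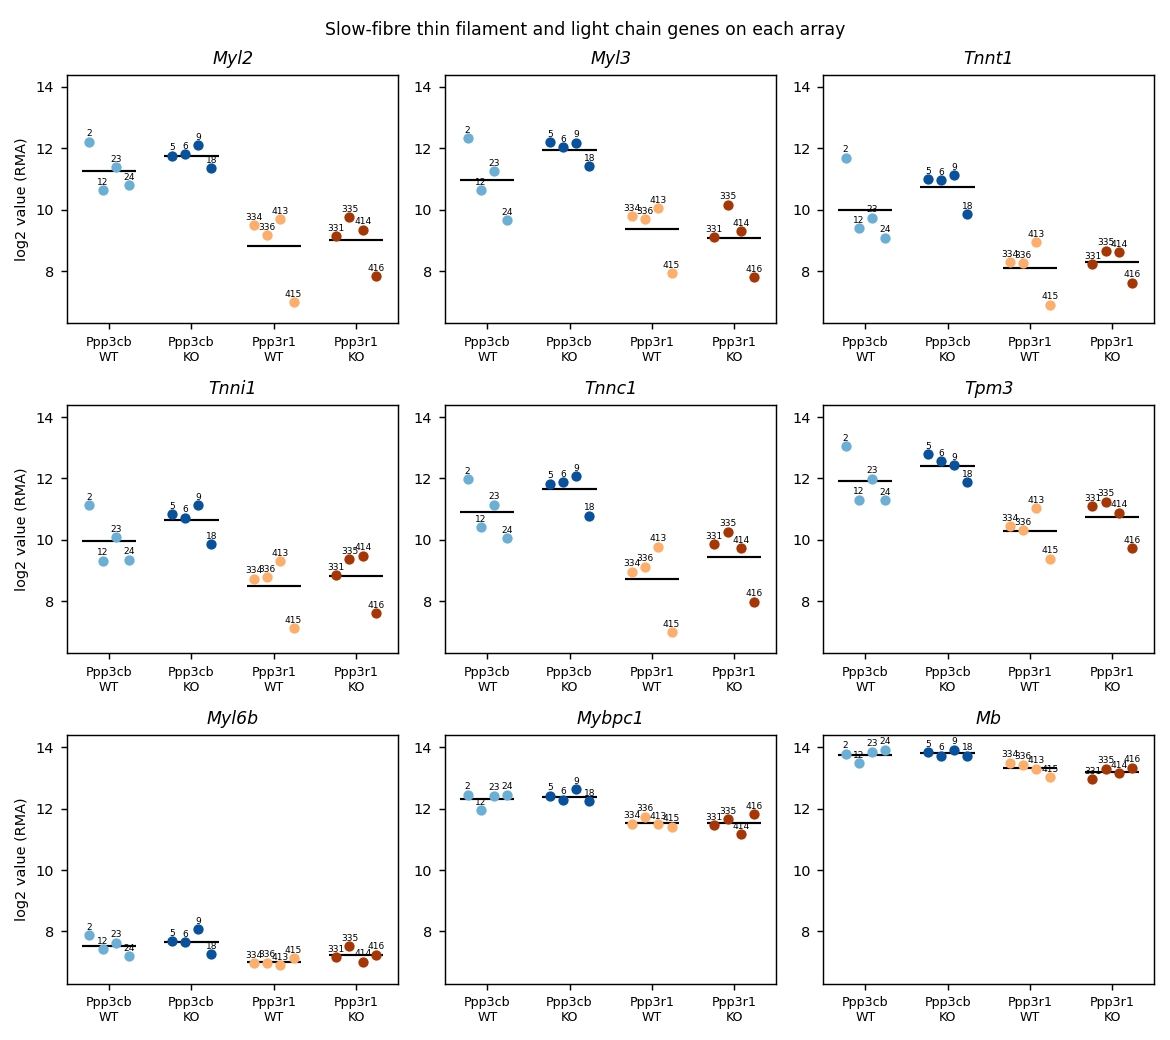
Log2 values (RMA, vertical axis) of the 9 genes on each of the 16 arrays, by group, with 4 arrays a group; points are single mice and bars are group means. Myl2, Myl3, Tnnt1, Tnni1, Tnnc1 and Tpm3 spread widely within groups and lie lower in the Ppp3r1 line, whereas Myl6b, Mybpc1 and Mb cover a range of at most 2.76-fold over all arrays.

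Values below are log2 and follow the animals in the order 2, 12, 23, 24 for Ppp3cb WT, 5, 6, 9, 18 for Ppp3cb KO, 334, 336, 413, 415 for Ppp3r1 WT and 331, 335, 414, 416 for Ppp3r1 KO. Myl2, the regulatory light chain of slow and ventricular muscle, had the widest range of the 9, 37.4-fold between its lowest and highest array. Its values were 12.21, 10.64, 11.37 and 10.79 in Ppp3cb WT and 11.76, 11.81, 12.10 and 11.36 in Ppp3cb KO. In Ppp3r1 WT they were 9.49, 9.16, 9.69 and 6.98, and in Ppp3r1 KO 9.14, 9.76, 9.35 and 7.83. Every array of the Ppp3cb line was above every array of the Ppp3r1 line, and within each line the groups overlapped. The lines parted in this way for Tnnt1, Tpm3 and Mybpc1 as well. How many of all clusters part the lines so was not computed, but 31.1% did not overlap between the WT groups. The lowest array of each Ppp3r1 group, WT 415 and KO 416, stood well below the other 3. Myl3, the essential light chain that pairs with Myl2 in slow fibres, was at 12.33, 10.63, 11.26 and 9.65 in Ppp3cb WT and at 12.19, 12.03, 12.18 and 11.41 in Ppp3cb KO. It was at 9.78, 9.68, 10.05 and 7.93 in Ppp3r1 WT and at 9.10, 10.16, 9.30 and 7.80 in Ppp3r1 KO. Here WT 24 of the Ppp3cb line reached down into the range of both Ppp3r1 groups, so the lines overlapped. Myl6b, a further essential light chain found in slow fibres and in non-muscle cells, had a mean of 7.36 over the arrays, not far above the filter. It measured 7.87, 7.43, 7.63 and 7.19 in Ppp3cb WT and 7.68, 7.64, 8.07 and 7.27 in Ppp3cb KO. It measured 6.96, 6.98, 6.90 and 7.14 in Ppp3r1 WT and 7.16, 7.51, 7.02 and 7.24 in Ppp3r1 KO. The WT groups of the lines did not overlap in this gene, while WT 415, the lowest array of its group for Myl2 and Myl3, was the highest for Myl6b.

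The slow troponins followed Myl2 closely. Tnnt1, slow troponin T, measured 11.68, 9.40, 9.73 and 9.09 in Ppp3cb WT and 10.99, 10.95, 11.12 and 9.85 in Ppp3cb KO. In Ppp3r1 WT the same gene was at 8.28, 8.26, 8.93 and 6.91, and in Ppp3r1 KO at 8.22, 8.66, 8.62 and 7.63. Animal 2 of Ppp3cb WT stood far above its 3 group mates, and no array of the Ppp3cb line reached down to the Ppp3r1 line. Tnni1, slow troponin I, was at 11.13, 9.32, 10.08 and 9.35 in Ppp3cb WT and at 10.83, 10.72, 11.13 and 9.86 in Ppp3cb KO. Ppp3r1 WT gave 8.74, 8.79, 9.31 and 7.13 for Tnni1, and Ppp3r1 KO gave 8.85, 9.38, 9.48 and 7.62. The WT groups just failed to overlap, by the gap between 9.31 and 9.32, and the Ppp3r1 KO arrays reached into the Ppp3cb WT range. Tnnc1, the troponin C shared by slow and heart muscle, covered a 33.9-fold range. Its arrays read 11.98, 10.40, 11.14 and 10.06 in Ppp3cb WT and 11.83, 11.87, 12.07 and 10.79 in Ppp3cb KO. They read 8.97, 9.13, 9.77 and 6.99 in Ppp3r1 WT and 9.85, 10.26, 9.73 and 7.99 in Ppp3r1 KO. WT groups did not overlap, whereas KO 335 of the Ppp3r1 line lay above the lowest Ppp3cb WT array.

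Tpm3, slow alpha-tropomyosin, was at 13.05, 11.31, 11.99 and 11.29 in Ppp3cb WT and at 12.78, 12.57, 12.42 and 11.88 in Ppp3cb KO. It was at 10.45, 10.31, 11.04 and 9.39 in Ppp3r1 WT and at 11.10, 11.25, 10.89 and 9.73 in Ppp3r1 KO. As for Myl2 and Tnnt1, all arrays of the Ppp3cb line were above all arrays of the Ppp3r1 line. The gene has 4 single-symbol probe sets, and the cell uses it for cytoplasmic tropomyosins as well. The chosen set had the highest mean, 11.34, and the other 3 averaged 10.07, 8.92 and 8.53. Their deviations from the group means correlated with those of the chosen set at r = 0.88, 0.82 and 0.72 over 16 arrays, as a description. Between the WT groups the 4 probe sets of Tpm3 did not move alike. The chosen set fell by 1.61 and the next by 0.77 (limma adjusted p = 0.0037), while the others differed by -0.03 and 0.30 and were not called (limma adjusted p = 0.930 and 0.200).

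Mybpc1 and Mb behaved differently from the troponins and light chains. Mybpc1, a thick-filament protein that fast fibres also contain, was at 12.45, 11.95, 12.42 and 12.45 in Ppp3cb WT and at 12.42, 12.28, 12.63 and 12.24 in Ppp3cb KO. It was at 11.51, 11.74, 11.48 and 11.41 in Ppp3r1 WT and at 11.45, 11.65, 11.16 and 11.82 in Ppp3r1 KO. The lines did not overlap, yet within groups the widest range was 1.57-fold. Mb, which oxidative fast fibres also use, was at 13.79, 13.47, 13.86 and 13.92 in Ppp3cb WT and at 13.83, 13.73, 13.91 and 13.72 in Ppp3cb KO. It was at 13.50, 13.43, 13.30 and 13.02 in Ppp3r1 WT and at 12.95, 13.30, 13.16 and 13.33 in Ppp3r1 KO. The lowest Ppp3cb WT array lay just inside the Ppp3r1 WT range. Mb covered the smallest range of the 9 genes, 1.95-fold, at values near the top of the scale, where the brightest probe set of an array read 14.93 to 15.04.

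The order of the group means was the same at the top for all 9 genes, Ppp3cb KO above Ppp3cb WT, and both above the Ppp3r1 groups. Of the lower pair Ppp3r1 KO was above Ppp3r1 WT for Myl2, Myl6b, Tnnt1, Tnni1, Tnnc1 and Tpm3, and the reverse held for Myl3, Mybpc1 and Mb. The groups of a line, neighbours in this order, overlapped for every gene. Ppp3r1 KO was next below Ppp3cb WT for 6 genes and did not overlap with it for Myl2, Tnnt1 and Tpm3, where 37.7% of all clusters did not overlap between these groups. Ppp3r1 WT was next below for the other 3 and did not overlap for Mybpc1, where 31.1% of all clusters did not.

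Loss of Ppp3r1 in muscle gave no called change in these genes. In limma, with Benjamini-Hochberg adjustment over 15252 transcript clusters, 0 of 9 were called, where 0.00656% of all clusters were (a single cluster, that of Myh2). At an unadjusted p under 0.05 there were 0 of 9, where 11.7% of all clusters lay, and 0 of 9 had arrays that did not overlap, where 4.86% of all clusters did. Tnnc1 had the largest difference, 0.74 (SE 0.55, 95% interval -0.41 to 1.90, adjusted p = 0.578), but it stood at 0.17 without WT 415, at 0.475 without KO 335 and at 1.23 without KO 416. Without WT 415 or KO 335 Myl3 had the largest, -0.75 and -0.63. Tpm3 differed by 0.45 (SE 0.39), Tnni1 by 0.34 (SE 0.48), Myl6b by 0.24 (SE 0.16), Myl2 by 0.19 (SE 0.50) and Tnnt1 by 0.19 (SE 0.48). The other 3 genes were lower in KO, Myl3 by -0.27 (SE 0.53), Mb by -0.13 (SE 0.11) and Mybpc1 by -0.02 (SE 0.14). The smallest two-sided exact permutation p was that of Myl6b, 0.0571, where 4 against 4 arrays cannot go below 0.0286. With 6 genes higher and 3 lower, the median difference was 0.19, against 0.02 over all clusters, of which 54.2% were higher. Several signs rested on single arrays. Without WT 415 Myl2 stood at -0.43, Tnnt1 at -0.21 and Tnni1 at -0.11, and the median was -0.11. Without KO 416 Myl3 stood at 0.16, and without KO 335 Myl2 stood at -0.06. The sign of Mybpc1 turned without WT 336 (0.05), KO 331 (0.01) or KO 414 (0.10).

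The single gene that passed in this comparison came from the fast list. Myh2, the myosin heavy chain of fast oxidative fibres, fell by 2.08 in Ppp3r1 KO (SE 0.25, limma adjusted p = 0.00186), with no overlap. That call was lost when the Ppp3r1 line was fitted alone (-2.08, SE 0.27, adjusted p = 0.0691), where no cluster passed. Of the 14 other slow-fibre genes, 12 were higher and 2 lower, with 0 called by limma and 1 at an unadjusted p under 0.05. Myh7, the slow myosin heavy chain, differed by 0.51 (SE 0.55, adjusted p = 0.713). Myoz2, a Z-disc protein of slow fibres that binds calcineurin, differed by -0.76 (SE 0.34, adjusted p = 0.412). The 7 fast counterparts of the genes (Mylpf, Myl1, Tnnt3, Tnni2, Tnnc2, Tpm1 and Mybpc2) were all lower in KO with 0 called and 2 at an unadjusted p under 0.05, between -0.23 for Tnnc2 and -0.01 for Tnni2 (6 of 7 lower with quantile normalization repeated). In the same comparison 4 of 4 satellite-cell markers were higher and 5 of 6 tendon markers lower, with 0 called of either list and 0 and 4 at an unadjusted p under 0.05. The tendon markers averaged 7.54 to 8.17 in WT and 7.06 to 7.75 in KO. Their part in the slow-gene values was not tested.

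**Figure D2:**
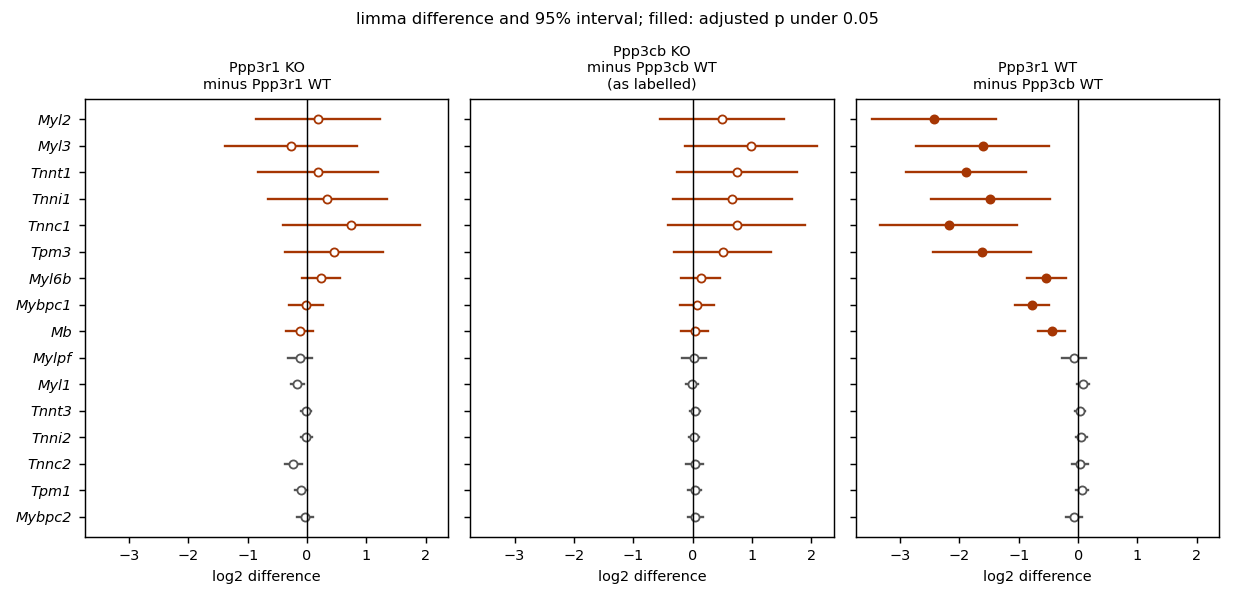
Log2 differences (horizontal axis) with 95% intervals from limma for the 9 genes (brown) and their 7 fast counterparts (grey) in 3 comparisons, with 4 arrays a group; filled points have an adjusted p under 0.05. All filled points are slow genes in the comparison of the WT groups, from -2.42 for Myl2 to -0.45 for Mb.

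In the Ppp3cb line all 9 genes were higher in KO as labelled, as were 55.9% of all clusters, and 0 of 9 were called, where 0% of all clusters were. Myl3 had the largest difference, 0.98 (SE 0.53, 95% interval -0.13 to 2.10), followed by Tnnt1 with 0.75 (SE 0.48), Tnnc1 with 0.75 (SE 0.55) and Tnni1 with 0.67 (SE 0.48). Tpm3 and Myl2 differed by 0.50 each (SE 0.39 and 0.50), Myl6b by 0.13 (SE 0.16), Mybpc1 by 0.08 (SE 0.14) and Mb by 0.04 (SE 0.11). The limma adjusted p was 0.9998 for each. At an unadjusted p under 0.05 there were again 0 of 9, where 1.73% of all clusters (264) lay. None of the 9 separated the groups without overlap, where 1.51% of all clusters did. The median over the 9 genes was 0.50, against 0.01 over all clusters. Without the 4 arrays at odds with their labels, which leaves 2 arrays a group, the median was 0.13, and 0 of 9 genes were called beside 14 clusters in all. Myl6b then stood at -0.17 and Tnnt1 at -0.13. Signs of small differences also turned when WT 12 was left out (Mybpc1 -0.04, Mb -0.06), and without KO 9 Myl6b was at -0.0006 and Mb at -0.0009. Without WT 2, the animal with the highest slow-gene values, the median was 0.88.

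Of the other slow-fibre genes in the Ppp3cb line 13 of 14 were higher with 0 called and 0 at an unadjusted p under 0.05, and Myh7 differed by 0.66. The fast genes were mostly higher as well. Of the 7 fast counterparts 6 were higher, between -0.01 for Myl1 and 0.05 for Mybpc2 with a median of 0.03, and of the whole fast list 14 of 15 were higher, or 11 with repeated quantile normalization and 15 with centred arrays. None of these was called by limma and 0 had an unadjusted p under 0.05. Skeletal muscle markers were higher in 7 of 7 cases, or 4 with repeated quantile normalization, with 0 called and 0 at an unadjusted p under 0.05. Macrophage markers were lower in 5 of 5 cases and tendon markers higher in 6 of 6, with 0 called and 0 and 3 at an unadjusted p under 0.05. Tendon markers averaged 7.63 to 8.36 in WT and 8.20 to 8.63 in KO, and macrophage markers 7.05 to 7.57 and 6.79 to 7.52. Their part in the slow-gene values was not tested.

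Whether the KO effect differed between the lines was tested as an interaction, and 0 of 9 genes were called, where 0% of all clusters were. There were also 0 of 9 at an unadjusted p under 0.05, where 5.31% of all clusters (810) lay. Myl3 had the largest difference between the effects, -1.26 (SE 0.75, 95% interval -2.84 to 0.32, limma adjusted p = 0.821), its KO mean being higher than WT in the Ppp3cb line and lower in the Ppp3r1 line. Tnnt1 was at -0.56 (SE 0.68) and Tnnc1 at -0.00 (SE 0.78). The median was -0.16 with 8 of 9 below 0. Without the 4 arrays at odds 5 of the genes had the other sign: Myl2 at 0.06, Tnnt1 at 0.31, Tnni1 at 0.22, Tnnc1 at 0.62 and Tpm3 at 0.29.

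Between the WT groups the slow apparatus was lower in the Ppp3r1 line throughout. In limma 9 of 9 genes fell in Ppp3r1 WT relative to Ppp3cb WT, where 35% of all clusters were called in either direction and 24.3% were called lower. Myl2 fell by 2.42 on the log2 scale, or 5.36-fold (SE 0.50, adjusted p = 0.00249), and Tnnc1 fell by 2.18, or 4.54-fold (SE 0.55, adjusted p = 0.00746). Tnnt1 fell by 1.88 (SE 0.48, adjusted p = 0.00798), Tpm3 fell by 1.61 (SE 0.39, adjusted p = 0.00613), Myl3 fell by 1.61 (SE 0.53, adjusted p = 0.0273) and Tnni1 fell by 1.48 (SE 0.48, adjusted p = 0.0246). The genes with a smaller spread moved less: Mybpc1 fell by 0.78 (SE 0.14, adjusted p = 0.00106), Myl6b fell by 0.53 (SE 0.16, adjusted p = 0.0153) and Mb fell by 0.45 (SE 0.11, adjusted p = 0.00598). Arrays did not overlap for 7 of the 9, where 31.1% of all clusters did not overlap in either direction and 22.7% were lower. Myl3 and Mb overlapped, with exact permutation p = 0.114 and 0.0571. The median over the genes was -1.61, against -0.10 over all clusters and -0.21 over all clusters with the arrays centred on their medians. All 9 genes were called with centred arrays and 8 with quantile normalization repeated, where Tnni1 was lost (-1.39, limma adjusted p = 0.0503). Of all 15252 clusters 6528 were called with centred arrays, 5674 of them lower. With quantile normalization repeated 3882 were called, 2950 of them lower. Tnni1 was also lost with array weights (-1.16, adjusted p = 0.0517) and with a robust variance prior (-1.48, adjusted p = 0.0570), and Myl3 with the latter (adjusted p = 0.0622). Of all calls 69.4% were lower in Ppp3r1 WT, and 86.9% with centred arrays.

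Single arrays decided some of these calls. Myl3 was not called without Ppp3cb WT 2 (-1.15, limma adjusted p = 0.0954), Ppp3cb WT 23 (-1.51, 0.0638), Ppp3r1 WT 336 (-1.72, 0.0501) or Ppp3r1 WT 415 (-1.13, 0.0891). Tnni1 was not called without Ppp3cb WT 2 (-1.09, adjusted p = 0.0854), Ppp3cb WT 23 (-1.44, 0.0523) or Ppp3r1 WT 415 (-1.03, 0.0808). Myl6b was not called without Ppp3cb WT 2 (-0.42, adjusted p = 0.0516). Leaving out the 4 arrays that go against their labels left 7 genes called, and Tnni1 (-1.73, adjusted p = 0.0560) and Mb (-0.32, 0.0885) were not. Averaging all 4 Tpm3 probe sets gave -0.53 (adjusted p = 0.0702). Myl2, Tnnt1, Tnnc1, Tpm3, Mybpc1 and Mb were called whichever single array was left out.

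The rest of the slow list was lower in 14 of 14 cases, and 11 were called, where 24.3% of all clusters were called lower. Csrp3, a Z-disc protein of slow and stretched fibres, fell by 2.70 (SE 0.32, limma adjusted p = 9.04e-05), and Myoz2 fell by 2.24 (SE 0.34, adjusted p = 0.000425). Ankrd2, a stretch-responsive protein of slow fibres, fell by 2.23, and Myh7 fell by 1.91 (SE 0.55, adjusted p = 0.0152). Atp2a2, the calcium pump of slow sarcoplasmic reticulum, fell by 1.45 (adjusted p = 0.00525) and Casq2, which stores calcium there, fell by 1.13. Of the fast counterparts 5 of 7 were higher and 2 lower, but 5 were lower with quantile normalization repeated and all 7 with the arrays centred on their medians. None of the 7 was called (lowest limma adjusted p = 0.208) and 0 had an unadjusted p under 0.05, while 1 was called lower with centred arrays. Their median difference was 0.03, -0.02 with repeated quantile normalization and -0.08 with centred arrays. These counterparts averaged 13.52 to 13.68 in Ppp3cb WT and 13.60 to 13.66 in Ppp3r1 WT, near the top of the scale. Whether that narrowed their differences was not tested. In the whole fast list of 15, Myh2 fell by 1.03 and Myh1 fell by 0.44. Pvalb, the calcium buffer of fast fibres, rose by 0.18, a call lost with repeated quantile normalization (0.10, adjusted p = 0.167) and with centred arrays (0.06, adjusted p = 0.449). Among 6 developmental isoforms Myl4 rose by 0.95, Myh3 fell by 0.42 and Actc1, cardiac actin, fell by 2.20.

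Some markers of other cell types also differed between the WT groups, where 24.3% of all clusters were called lower and 35% in either direction. Macrophage markers were called lower in 5 of 5 cases and averaged 7.05 to 7.57 in Ppp3cb WT and 6.48 to 6.91 in Ppp3r1 WT. Smooth muscle markers were lower in 5 of 5 with 1 called (Tagln), at 8.41 to 8.80 against 8.21 to 8.38. With repeated quantile normalization 4 of the 5 were lower and Tagln was not called (limma adjusted p = 0.0567). Of the Schwann cell markers 3 of 5 matched, 2 were called lower (Mbp and Pmp22), and the averages were 8.64 to 8.84 against 8.32 to 8.54. Endothelial markers were lower in 3 of 4 with 2 called (Pecam1 and Tek), but with repeated quantile normalization 2 were higher and 2 lower and Tek was not called (adjusted p = 0.0828). Heart markers were higher in 5 of 6, or 3 of 6 under either other scaling. Myh6 was called lower under all of these scalings. Myl7 and Ryr2 were called higher, but neither was with repeated quantile normalization (limma adjusted p = 0.151 and 0.0932) and Myl7 was not with centred arrays (0.0719). Satellite-cell markers were lower in 3 of 4 with 1 called (Myog), or 2 called with repeated quantile normalization. Tendon markers were lower in 4 of 6, or 6 with centred arrays, and adipocyte markers higher in 4 of 5. Of these 2 lists 0 were called. None of the marker genes of these lists lay below the filter. Their part in the slow-gene difference was not tested, and diet, housing or handling of the lines cannot be told apart from line.

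Within groups, 6 of the genes were among the most variable on the array. The pooled within-group SD of the log2 values was 0.94 for Tnnc1, 0.91 for Myl3, 0.85 for Myl2, 0.82 for Tnnt1, 0.81 for Tnni1 and 0.67 for Tpm3. That put Tnnc1 at rank 16 and Tpm3 at rank 82 of 15252 clusters, whose median SD was 0.16 and whose 99th percentile was 0.54. Myh7 was alongside, with an SD of 0.95 and rank 15. Myl6b with 0.25, Mybpc1 with 0.22 and Mb with 0.17 lay at the percentiles 88.1, 81.7 and 63.0. The 7 fast counterparts had SDs between 0.03 for Tnni2 and 0.14 for Mylpf. Averaged over the 7, they read 13.42 to 13.68 on every array, where the brightest probe set of an array read 14.93 to 15.04. Whether values so near the top of the scale narrowed their spread was not tested. By group, the SD of Myl2 was lowest in Ppp3cb KO, 0.31, and highest in Ppp3r1 WT, 1.25. Tnnt1 had an SD of 1.17 in Ppp3cb WT and 0.48 in Ppp3r1 KO.

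**Figure D3:**
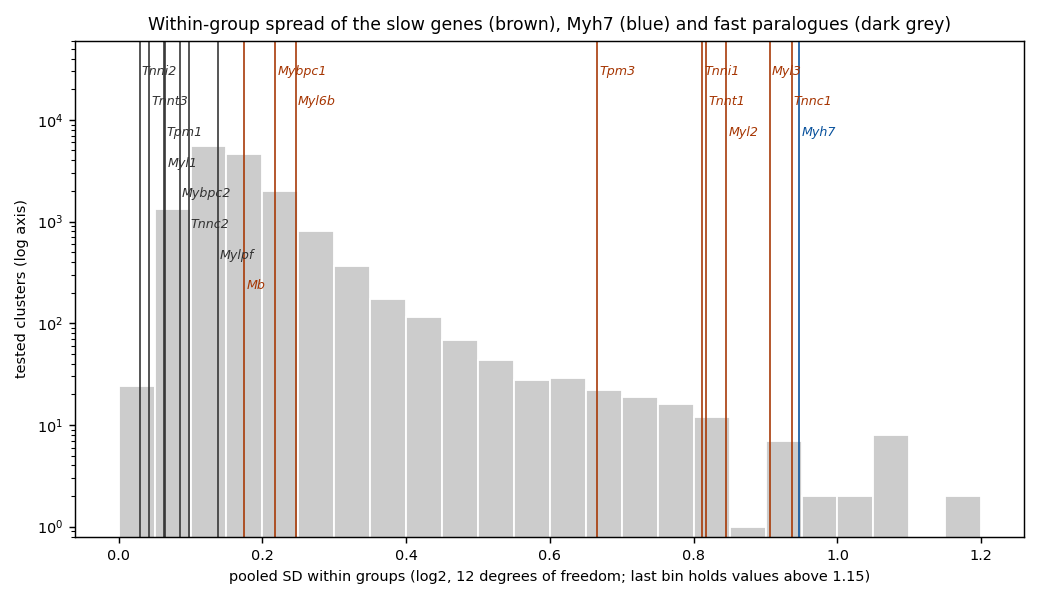
Number of tested clusters (vertical log axis) by pooled within-group SD of log2 values (horizontal axis, 12 degrees of freedom, 15252 clusters). Lines mark the 9 genes (brown), Myh7 (blue) and the 7 fast counterparts (dark grey); 6 slow genes and Myh7 lie between 0.67 and 0.95, beyond the 99th percentile of 0.54.

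The spread had the same animals at its ends for most of the genes. Ppp3cb WT 2 was the highest array of its group for 7 of 9 genes, with a mean deviation from the group means of 0.88. Ppp3cb KO 18 was the lowest of its group for all 9 genes, with a mean deviation of -0.51. In the Ppp3r1 line WT 415 was the lowest for 8 of 9 genes (mean deviation -0.97), and KO 416 was the lowest for 6 and the highest for Mybpc1 and Mb (mean deviation -0.71). WT 413 and KO 335 were each the highest of their group for 6 genes, with mean deviations of 0.54 and 0.51.

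**Figure D4:**
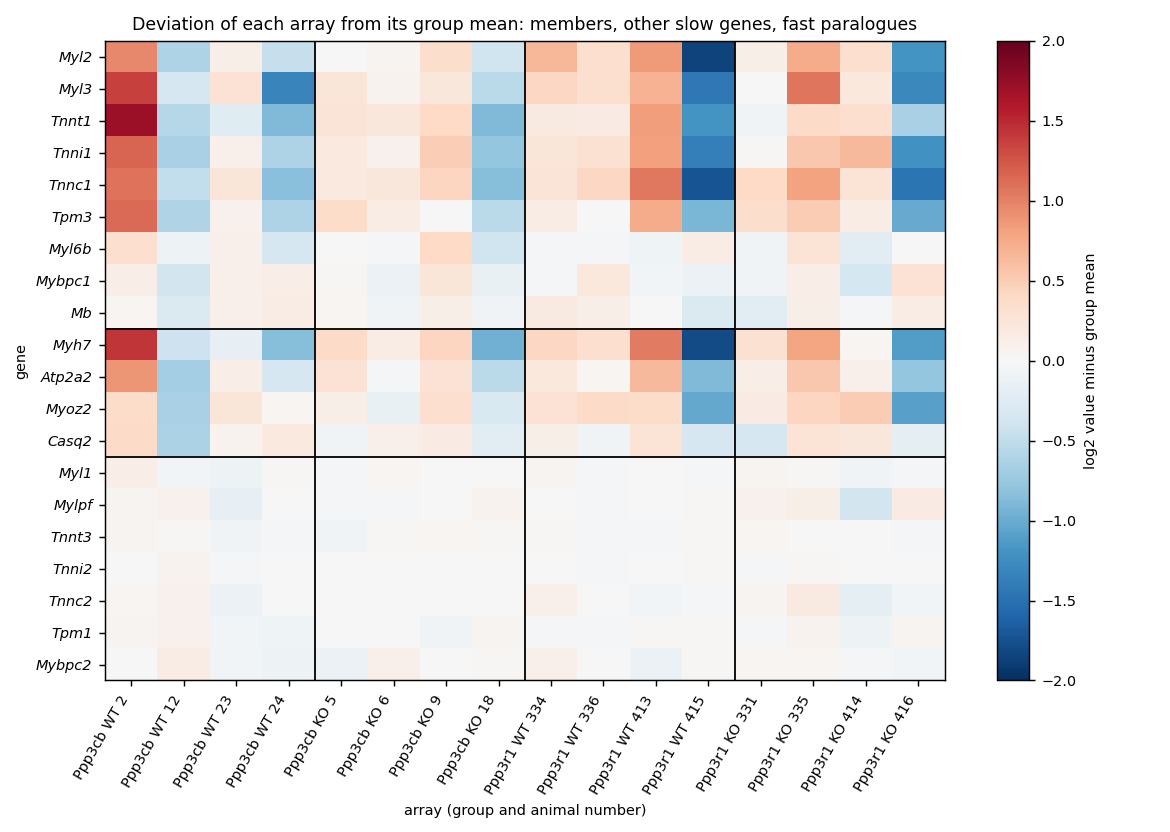
Deviation of each array from its group mean (colour, log2) for the slow genes and their fast counterparts (rows) on the 16 arrays (columns, by group and animal number). Myl2, Myl3, Tnnt1, Tnni1, Tnnc1, Tpm3 and Myh7 share the same high arrays (Ppp3cb WT 2) and low arrays (Ppp3r1 WT 415 and KO 416), and the fast counterparts have pooled SDs of at most 0.14. Those counterparts average 13.42 to 13.68 on an array, near the top of the scale.

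Myl2, Myl3, Tnnt1, Tnni1, Tnnc1 and Tpm3, grouped after their values were seen, moved together. Over the 16 arrays the 15 pairs of these 6 genes had correlations of deviations from group means between 0.86 and 0.97, with a median of 0.93. The median was 0.94 within the 8 arrays of the Ppp3cb line, 0.97 within the 8 of the Ppp3r1 line and 0.92 without WT 415. Myl6b correlated with the 6 at 0.24 to 0.49 over all arrays. The lines gave different pictures for Myl6b, with 0.74 to 0.92 in the Ppp3cb line and -0.33 to -0.05 in the Ppp3r1 line. Mybpc1 correlated with the 6 at 0.07 to 0.17 and Mb at 0.20 to 0.45, while Mybpc1 and Mb correlated with each other at 0.71, from 0.95 in the Ppp3cb line and 0.53 in the Ppp3r1 line. These correlations describe arrays that share animals, RNA and normalization, and none was tested.

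Among 13297 other genes ranked by the correlation of their deviations with the mean deviation of the 9 genes over 16 arrays, Myh7 came first at 0.98 and Atp2a2 second at 0.98. Lgi1 followed at 0.89, Myoz2 at 0.86, Tspan2 at 0.82, Zdhhc23 at 0.80, Myh8 at 0.80 and Fnbp1l at 0.79. At the other end were Cdkal1 at -0.88, Gatd1 at -0.85, Nup43 at -0.84 and Farp1 at -0.82. The fast counterparts lay between -0.27 for Tnni2 and 0.42 for Myl1. Myh2 correlated at 0.55, and at 0.30 without WT 415. Ppp3cb itself correlated at 0.23 and Ppp3r1 at -0.14.

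Since Ppp3cb parts its line into arrays below and above 11 that do not follow the labels, the slow genes were also set against the measured Ppp3cb value, as a description with no test and with no genotype read from it. Animals 5, 18, 23 and 24 lay below 11 and animals 2, 6, 9 and 12 above. The ranges of these 4 and 4 arrays overlapped for all 9 genes, where 12.2% of all clusters did not overlap. The median below 11 was lower than the median above it for 7 of the 9 genes, with Tnnt1 at 9.79 against 11.04. It was higher for Mybpc1 (12.42 against 12.37) and Mb (13.85 against 13.76). The share of all clusters with a lower median below 11 was not computed. Of these 7 genes, 6 moved together from array to array, so they do not count as separate observations. Tnnt1 ranged from 9.09 to 10.99 below 11 and from 9.40 to 11.68 above it, and Tnnc1 from 10.06 to 11.83 below and from 10.40 to 12.07 above. Animal 12, which had the highest Ppp3cb value of the line, had the lowest Myl2, Tnni1, Mybpc1 and Mb values among all 8. Animal 24, at 10.23 in Ppp3cb, had the lowest Myl3, Myl6b, Tnnt1, Tnnc1 and Tpm3 values. Animal 5, with the lowest Ppp3cb value, had 11.76 for Myl2 and 10.83 for Tnni1. With 2 arrays on either side, 2 of 9 genes (Myl2 and Tnnc1) did not overlap among the arrays labelled KO, where 42.2% of all clusters did not. Among those labelled WT 1 of 9 (Mb) did not overlap, where 46.4% of all clusters did not.

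**Figure D5:**
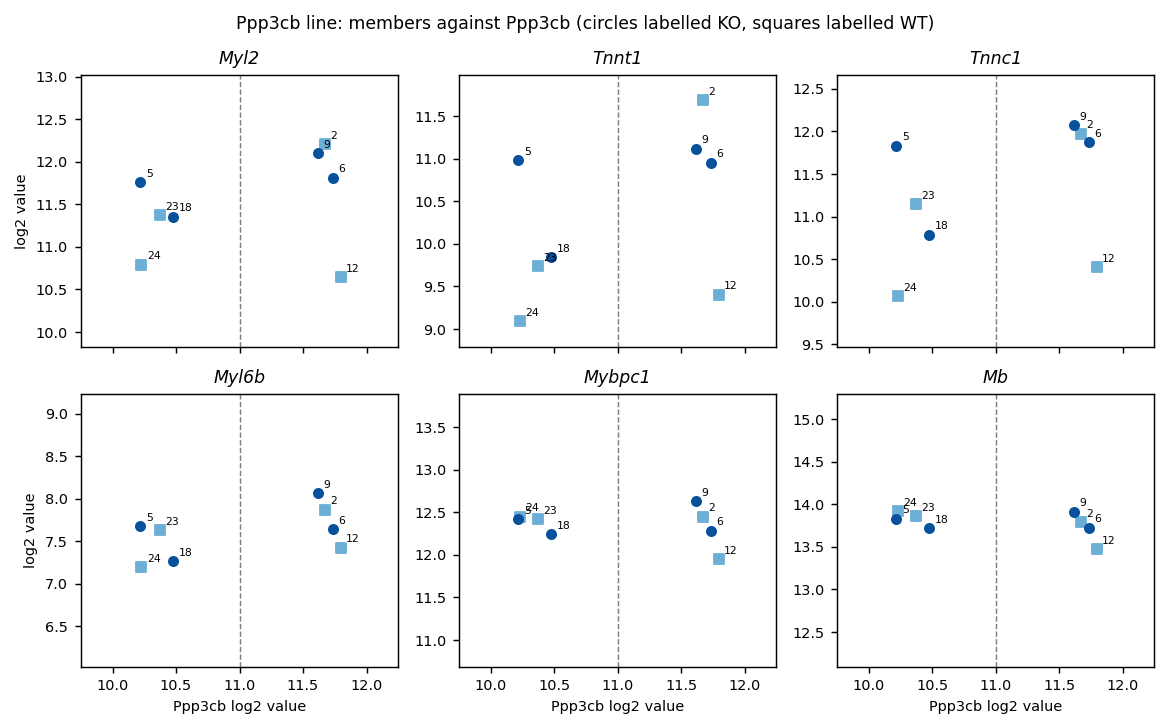
Log2 values of 6 of the genes (vertical axes, each spanning the same log2 width) against the Ppp3cb log2 value (horizontal axis) on the 8 arrays of the Ppp3cb line, with circles for the label KO, squares for the label WT, animal numbers beside them and a dashed line at 11. For Myl2, Tnnt1 and Tnnc1 the ranges on either side of the line overlap, and the highest value of each lies above 11 in Ppp3cb. Mybpc1 and Mb vary less than these genes.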

How the data were processed

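RNA from gastrocnemius of 16 mice, 4 per group, was measured on Affymetrix Mouse Gene 1.0 arrays. The authors made the log2 values with GCOS 1.0 and RMA, per the submitters' processing notes. The sources used here do not give whether the lines were normalized together. Both deposited log2 tables held the same 35557 probe sets, and 0 values differed. The files also hold ratio columns deposited by the authors, which match each linear value over its line's median and were not tested. Each of 48 columns was assigned to its sample through the name in its header.

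Probe sets were named through the platform's annotation. Exactly 1 symbol was given for 21789 probe sets and several for 1621, and 12147 were not listed. The tested set held the 15252 single-symbol probe sets (transcript clusters) with a mean log2 of 6.18 or more, their 30th percentile. Differences came from limma 3.58.1 (R 4.3.3), with 1 mean per group fitted over the 16 arrays (12 residual degrees of freedom, intensity trend), with Benjamini-Hochberg adjustment over all clusters and calls at an adjusted p under 0.05. Exact permutation tests were two-sided. Functions were tested on simulated data.

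The genes named were the 9 genes, the targeted genes, listed slow, fast and developmental genes, and the genes with the highest and lowest correlation. Members and lists were chosen with earlier results of these data known. The motifs were searched in RefSeq promoter windows of GRCm38.p6. Alternatives covered the filter, normalization, weights, variance prior, probe set choice, a block for the series of animal numbers, and arrays left out. Protein sequences were not used here.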

Additional observations from a re-analysis of the deposited data

Results flagged for a closer look

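In 36 combinations of gene and group, the gap between an extreme array and its nearest neighbour was compared with the range of the group's 4 arrays, and 2 stood out. Chance gives about 1 in 20. Tnnt1 on Ppp3cb KO 18 was at log2 9.85, below its 3 group mates, with a gap of 0.867 of the group's range. Mybpc1 on Ppp3cb WT 12 was at 11.95, below its 3 group mates, with a gap of 0.938 of the range.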

How the results depend on the processing

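No paired analysis was possible because the groups share no replicate numbers in the labels; with a block that separates animals 331 to 336 from animals 413 to 416 in the Ppp3r1 line, 0 of 9 genes were called and no sign turned. No setting made a call among the 9 genes in the KO comparisons or their difference. Leaving out each array gave a Ppp3r1 median of -0.11 to 0.47, with Myl2 at -0.43 to 0.59, Myl3 at -0.75 to 0.16, Tnnt1 at -0.21 to 0.47, Tnni1 at -0.11 to 0.75, Tnnc1 at 0.17 to 1.23, Tpm3 at 0.14 to 0.78 and Mybpc1 at -0.12 to 0.10. Mybpc1 was at 0.0075 with repeated quantile normalization and 0.0791 with array weights. Without both WT 415 and KO 416, chosen after seeing the data, Myl2 was at -0.0295. In the Ppp3cb line the ranges were 0.30 to 0.88 for the median, -0.0006 to 0.27 for Myl6b, -0.0434 to 0.13 for Mybpc1 and -0.0585 to 0.089 for Mb; without the arrays at odds with their labels Myl6b was at -0.17 and Tnnt1 at -0.13. For the difference of the effects the ranges were -0.58 to 0.0813 for the median, -0.93 to 0.0835 for Myl2, -0.0289 to 0.24 for Myl6b, -0.78 to 0.0813 for Tnni1, -0.58 to 0.49 for Tnnc1, -0.44 to 0.28 for Tpm3 and -0.19 to 0.0267 for Mybpc1. Tnnc1 was at 0.0573 with repeated quantile normalization and Tpm3 at 0.0116 with the mean of its probe sets. Without the arrays at odds Myl2 was at 0.0575, Tnnt1 at 0.31, Tnni1 at 0.22, Tnnc1 at 0.62 and Tpm3 at 0.29. Between the WT groups the median was -1.84 to -1.13 and 6 to 9 genes were called, with 6 without Ppp3cb WT 2. Calls fell to 8 with array weights, repeated quantile normalization or the mean of probe sets and to 7 with a robust variance prior. All clusters gave 5343 calls, 3099 without Ppp3r1 WT 336, 3560 without Ppp3r1 WT 413 and 3324 without the arrays at odds. The share of calls that were lower was 69.4%, 84.9% with a filter at the median and 53.7% with no filter. In the Ppp3cb line all clusters gave 0 calls, 2 without KO 9 and 14 without the arrays at odds; in the Ppp3r1 line they gave 1 (Myh2), 0 with the line fitted alone, 2 with array weights, without KO 331 or without both WT 415 and KO 416, 3 without Ppp3cb WT 12 and 12 without KO 416. By Ppp3cb value, 2 genes did not overlap within the KO label (42.2% of all clusters) and 1 within the WT label (46.4%), each 2 against 2 arrays, and 0 over 4 against 4 (12.2%). Leaving out the array farthest from its group mean is the same as leaving out Ppp3r1 WT 415. The causes were not tested. The 4 arrays a group and the wide spread of the slow genes limit what could be called: the 95% interval of Tnnc1 in the Ppp3r1 line ran from -0.41 to 1.90.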
